A study of Citrus maxima with 6 samples.

Results

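The genes described here encode late embryogenesis abundant (LEA) proteins and dehydrins in the ripe sarcocarp, the edible pulp, of pomelo (Citrus maxima). They are the 59 of the 30123 genes in the deposited table whose annotated name contained "late embryogenesis abundant", "dehydrin" or "LEA14" in any case, a rule that reads names alone. The red-sarcocarp pomelo belonged to Citrus maxima Merr. var. Tubtim Siam, while that with white sarcocarp belonged to Citrus maxima (Burm.) Osbeck. There were 3 libraries of each, and the labels name no treatment. Each library came from the mixed pulp of several fruits, and each colour was represented by 1 cultivar, so that sarcocarp colour and cultivar cannot be told apart. Expression was given as FPKM, the fragments mapped to a gene relative to its length and to the size of the library. Red- and white-sarcocarp pomelo were compared with limma on log2(FPKM + 0.1), and log2 fold changes are red over white on that scale, where the added 0.1 shrinks the fold changes of genes at low FPKM. No count per library stands behind a value, so precision was read from the 3 replicates, and every p-value measures the spread between these libraries only.

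LEA proteins accumulate late in seed maturation and, in leaves, roots and other organs, when water is lost or the temperature falls. Most of them are very hydrophilic and unfolded in solution, and they protect membranes and enzymes during drying. Dehydrins are a LEA group with a conserved lysine-rich segment, the LEA14 type has a folded domain instead, and a related domain occurs in the NDR1/HIN1-like proteins, membrane-anchored proteins best known in Arabidopsis for their part in resistance to bacteria. Abscisic acid (ABA) and the DREB/CBF transcription factors are the main known inducers of dehydrins and several other LEA genes.

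The name rule gathered several kinds of protein. Of the 59 genes, 38 were annotated as the LEA hydroxyproline-rich glycoprotein family, 2 as dehydrins, 4 as LEA protein-related and 15 as other LEA proteins. Each gene in the table carries its best Arabidopsis hit, and 13 of the 59 had a best hit among the 51 LEA genes of Arabidopsis, none of them in the hydroxyproline-rich family. That family instead included best hits to NDR1 and NHL13, so most of the genes carried the LEA name without a best hit to a classical LEA protein. The 59 genes had 42 different best hits. The most frequent one, AT2G27080 (NHL13), was shared by 7 genes, of which 5 were listed at 0 in all 6 libraries and 1 was tested. Judged by their IDs, 15 genes lay in 6 runs of consecutive genes, the longest being Cg2g040500 to Cg2g040540, all 5 of which were listed at 0. Where such copies are nearly identical, the sharing of reads among them is uncertain.

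Most of these genes were listed at 0 or had a low FPKM in ripe pulp. Genes entered the test at a mean FPKM of 1 or more in either cultivar, which 22 of the 59 genes reached. Of the 37 genes not tested, 24 were listed at 0 in all 6 libraries. In the authors' deposited mean normalized count over the 6 libraries, 18 of these 24 were also at 0, and the highest of the other 6 was 2.23. The remaining 13 genes had an FPKM above 0 in at least 1 library, with a highest single value of 1.61 and a highest cultivar mean of 0.827. Among these 13 were the second dehydrin, Cg8g007900, with 0.07, 0 and 0.40 in the red libraries and 0, 0 and 0.08 in the white libraries, and Cg6g012760, with a best hit to LEA4-5, a protein linked to tolerance of water deficit in Arabidopsis, which had between 0 and 0.60 in red and between 0.11 and 1.29 in white. For Cg6g001800 the sources disagreed, since it had FPKM above 0 in 3 libraries but an authors' mean normalized count of 0. A low FPKM did not always go with a low count. Cg2g021510 had FPKM between 0.36 and 1.22 and was not tested. Its authors' mean normalized count of 53.4 was above that of Cg5g039950 (35.6), which was tested.

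Among the genes of the name rule, most of the FPKM came from a single dehydrin gene and a single LEA14-type gene. Cg3g024920, annotated as a dehydrin family protein with a best hit to the acidic dehydrin ERD14, had a FPKM of 2640.3, 2428 and 2849 in red replicates 1 to 3 and of 3592, 3773 and 4084 in white replicates 1 to 3. The lowest white library lay above the highest red library. By mean FPKM over the 6 libraries it ranked 11 among all 30123 genes. Its log2 fold change was -0.53 (SE 0.12) with an adjusted p of 0.0112, just outside the threshold of 0.01, so it is not counted as changed. This gene stood near that threshold under the other settings too, with an adjusted p between 0.00523 and 0.0498 over 17 alternatives, of which 5 were at most 0.01, including that without red replicate 3 (0.00709).

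Cg2g024840, whose best hit is LEA14 itself, had a similar FPKM and did not pass the test. The similarity holds for FPKM, which is relative to gene length. The authors' mean normalized counts were far apart, at 91012 for Cg3g024920 and 18908 for Cg2g024840. Its FPKM was 2993, 2415 and 3286 in the red libraries and 2418, 2670.2 and 2772 in the white libraries, and the cultivars overlapped. The log2 fold change was 0.14 (SE 0.15) with an adjusted p of 0.480, and its sign turned under quantile normalization (-0.03). Together, Cg3g024920 and Cg2g024840 held between 68.6% and 73.3% of the FPKM summed over the 59 genes in each library.

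All 59 genes together made up 0.951%, 0.850% and 1.10% of the summed FPKM of the red libraries, and 1.05%, 1.09% and 1.15% of that of the white libraries. The means were 0.967% ± 0.126 in red and 1.10% ± 0.0512 in white (SD, n = 3), and red replicate 3 lay within the white range. The dehydrin gene alone took 0.320% ± 0.0293 in red and 0.468% ± 0.0324 in white. The 38 hydroxyproline-rich genes took 0.251% ± 0.0441 and 0.257% ± 0.00897, and the cultivars overlapped in this share.

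**Figure D1:**
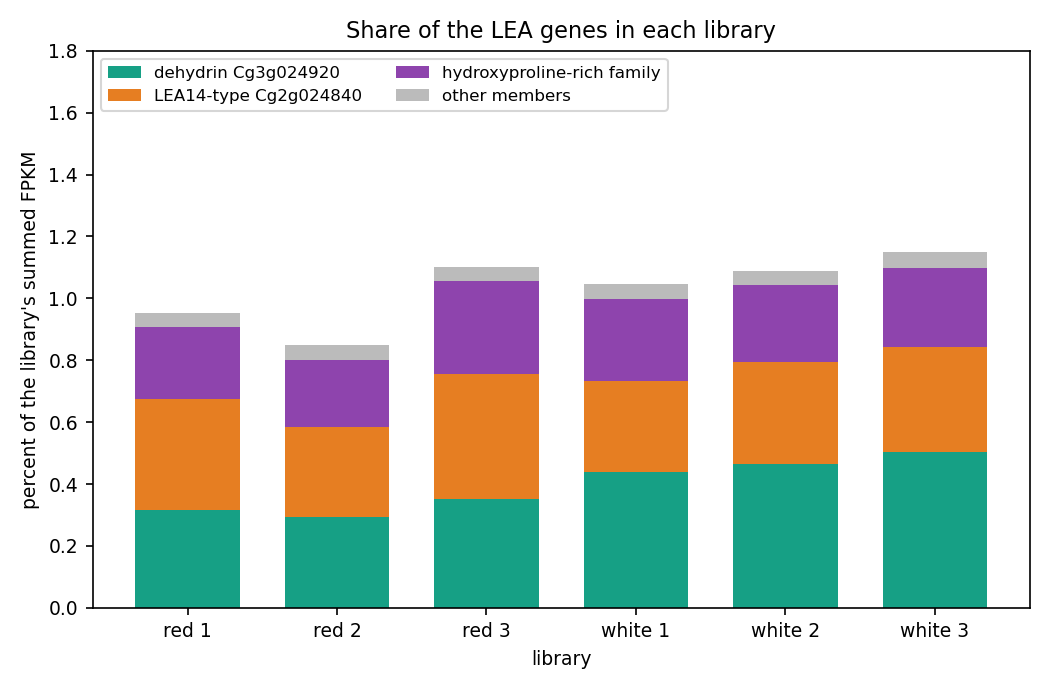
Percent of each library's summed FPKM taken by the dehydrin gene Cg3g024920, the LEA14-type gene Cg2g024840, the hydroxyproline-rich family and the other genes, stacked from 0, for the 3 red and 3 white libraries. The dehydrin part is 0.292% to 0.350% in red and 0.438% to 0.502% in white, while the total ranges from 0.850% to 1.10% in red and from 1.05% to 1.15% in white.

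The balance between the dehydrin and the LEA14-type gene differed between the cultivars within every library. The ratio of Cg3g024920 to Cg2g024840 was 0.882, 1.01 and 0.867 in the red libraries and 1.49, 1.41 and 1.47 in the white libraries. The mean log2 ratio was -0.13 ± 0.12 in red and 0.54 ± 0.04 in white (SD, n = 3), a difference of -0.67. Such a ratio does not depend on the scaling of a library. An exact two-sided permutation test gave p = 0.1, the smallest value that this test can give with 3 libraries against 3, so it cannot go below 0.05 here. This pair and a second pair described with the hydroxyproline-rich family were chosen after their values were seen, so their p-values are no independent evidence of a difference. The Benjamini-Hochberg adjusted p over the 2 pairs was also 0.1, and it does not cover other pairs that could have been chosen.

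Among the 22 tested genes, 2 passed both thresholds of the study (log2 fold change of 2 or more in either direction, adjusted p not above 0.01). One was higher in red-sarcocarp pomelo, where the background over all 14158 genes tested was 3.11%, and 1 was lower, where it was 3.65%. Each count is 4.55% of the 22 genes, which is near the background. By the adjusted p alone, 2 genes were higher in red (9.09%, against a background of 13.4%) and 5 were lower (22.7%, against a background of 14.1%). The replicates of the cultivars did not overlap for 11 of the 22 genes, while they did not overlap for 57.7% of all genes tested. The median log2 fold change was -0.24 over the 22 genes and 0.02 over all genes tested, with 7 positive and 15 negative values. With 22 genes, 1 gene more or less moves such a share by 4.55 percentage points.

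**Figure D2:**
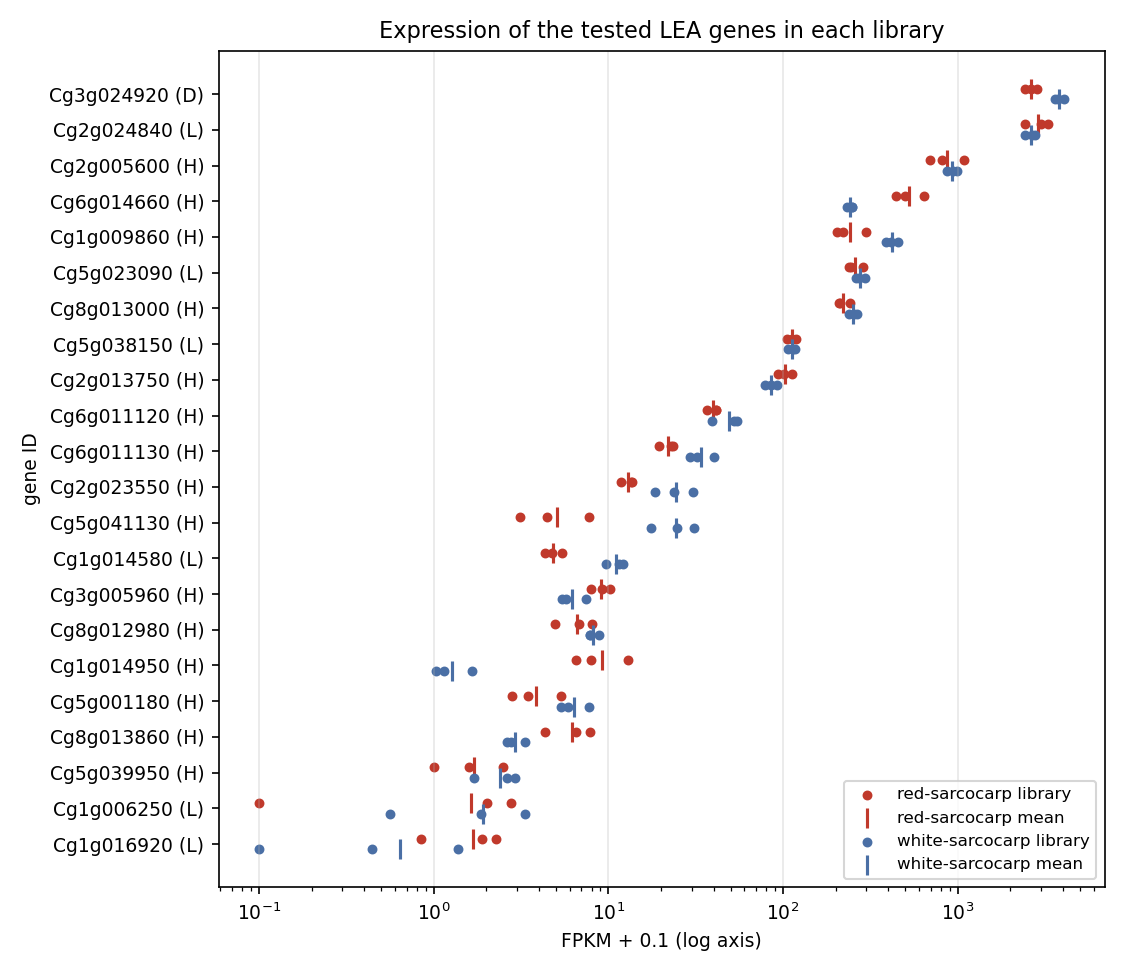
FPKM + 0.1 on a log axis in each library (points) with the mean of each cultivar (vertical bars) for the 22 tested genes, ordered by mean level. D marks the dehydrin, L the other LEA genes and H the hydroxyproline-rich family. The genes span from a mean FPKM of 1.05 to 3228, and red and white points lie apart for 11 of the 22.

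Beside the LEA14-type gene, 5 other genes of the group named simply as LEA proteins were tested. Of these 6, 1 was lower in red by the adjusted p and none was higher, against 14.1% and 13.4% of all genes tested. Cg1g014580, annotated as LEA group 2 with a best hit to AT3G24600, had a FPKM of 4.24, 4.64 and 5.29 in red and 11.4, 9.57 and 12.0 in white. The red libraries lay close together and all below the white libraries. Its mean was 2.33 times as high in white, with a log2 fold change of -1.20 (SE 0.15) and an adjusted p of 0.000815, and it was called in all 17 alternatives. As its fold change was below 2 on the log2 scale, it did not pass both thresholds.

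The other group 2 gene, Cg5g023090, had a best hit to AT2G44060, a LEA14-type protein. Its FPKM was 238, 286 and 245.5 in red and 272, 262 and 293 in white, with a log2 fold change of -0.11 (SE 0.10) and an adjusted p of 0.398. For Cg5g038150, a LEA family gene with a best hit to AT3G62580, the red values were 118, 113 and 105 and the white values 117, 114 and 107. Red and white values overlapped for both genes. For Cg5g038150 the log2 fold change was -0.01 (SE 0.08) with an adjusted p of 0.903, and it lay between -0.05 and 0.05 under the 17 alternatives.

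The last pair of this group was tested at a very low level. Cg1g016920, with a best hit to LEA7 of the LEA_4 family, had 0.74, 2.18 and 1.79 in red and 1.27, 0.34 and 0 in white, a log2 fold change of 1.97 (SE 0.94) and an adjusted p of 0.127. Cg1g006250, annotated as LEA group 6, had 0, 2.65 and 1.92 in red and 0.46, 3.23 and 1.77 in white, a log2 fold change of -0.88 (SE 1.30) and an adjusted p of 0.608. Both genes overlapped between the cultivars. The authors' mean normalized counts were 10.03 and 4.29, the lowest of the tested genes. Without red replicate 1 the log2 fold change of Cg1g006250 turned to 0.64. That of Cg1g016920 was 0.98 without white replicate 3 and 2.87 without white replicate 1 (adjusted p 0.281 and 0.0336), and it ran from 0.78 to 3.12 with the pseudocount.

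In the hydroxyproline-rich family 15 of 38 genes were tested, of which 2 were higher in red, 4 were lower and 9 did not pass the adjusted p, while 13.4% and 14.1% of all genes tested were higher and lower. Their median log2 fold change was -0.29, with a range from -2.32 to 2.81. Cg1g014950, with a best hit to AT1G52330, was the one gene that passed both thresholds in the red direction. It had a FPKM of 7.87, 12.9 and 6.40 in red-sarcocarp pomelo and 1.04, 1.56 and 0.93 in white-sarcocarp pomelo. The lowest red library was above the highest white library. The mean was 7.70 times as high in red, with a log2 fold change of 2.81 (SE 0.31) and an adjusted p of 0.000560, and the call at the adjusted p held in all 17 alternatives.

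Cg5g041130, with a best hit to AT2G46300, passed both thresholds in the other direction. Its FPKM was 3.02, 7.60 and 4.32 in red and 17.4, 24.4 and 30.7 in white, without overlap. The mean was 4.85 times as high in white, with a log2 fold change of -2.32 (SE 0.35) and an adjusted p of 0.00196. The replicates of both cultivars were spread widely, with a coefficient of variation of 47.4% in red and 27.7% in white. Without white replicate 2 the adjusted p was 0.0102, and the call was lost.

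Cg6g014660 was the most abundant gene of the family to differ. It had 499.9, 442 and 641 in red and 249, 247 and 232 in white, and its mean was 2.18 times as high in red, with a log2 fold change of 1.10 (SE 0.14) and an adjusted p of 0.000916. The white libraries agreed to within a coefficient of variation of 3.78%, the lowest of the 22 genes in either cultivar. The call held in all 17 alternatives, and without red replicate 3, the highest red library, the log2 fold change was 0.95 with an adjusted p of 0.000764.

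Its best hit, AT2G27260, was shared by 1 other gene, Cg8g013000, which did not pass the test. That gene had 211, 242 and 208 in red and 255, 238 and 263 in white, a log2 fold change of -0.19 (SE 0.09) and an adjusted p of 0.113. In white the pair had about the same FPKM, with a ratio of Cg6g014660 to Cg8g013000 of 0.974, 1.04 and 0.881, whereas in red the ratio was 2.36, 1.82 and 3.08. The mean log2 ratio differed by 1.30, with an exact two-sided permutation p of 0.1, again the smallest that this test can give.

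**Figure D3:**
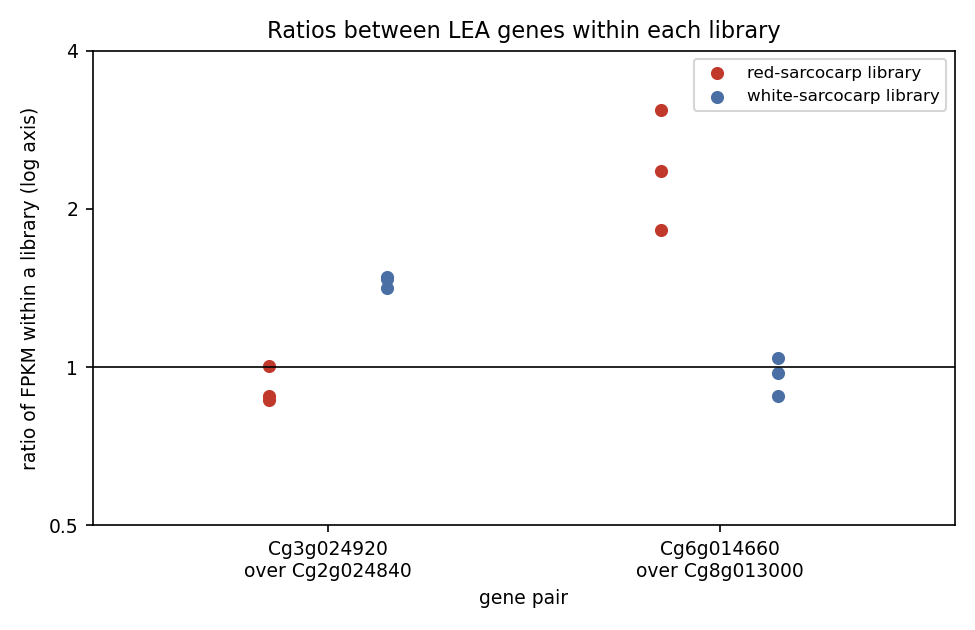
Ratio of FPKM within each library, on a log axis, for the dehydrin gene over the LEA14-type gene (left) and for the pair of genes with the best hit AT2G27260 (right), with points for the 3 red and 3 white libraries. The left ratio is 0.867 to 1.01 in red and 1.41 to 1.49 in white, and the right ratio is 1.82 to 3.08 in red and 0.881 to 1.04 in white.

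The most abundant gene of the family was Cg2g005600, with the best hit NHL13, a gene of Arabidopsis with a part in immunity to bacteria. Its FPKM was 810.5, 692 and 1084 in red and 991, 871 and 936 in white, so the red libraries enclosed the white ones. The log2 fold change of -0.14 (SE 0.17) had an adjusted p of 0.532, and without red replicate 2 it was 0.01. Cg1g009860, with a best hit to AT1G17620, had 222, 204 and 296 in red and 458, 417 and 389 in white without overlap, and a mean 1.75 times as high in white. Its log2 fold change was -0.82 (SE 0.15) with an adjusted p of 0.00413. The call was lost when any library but red replicate 3 was left out, with an adjusted p of up to 0.0213 and a log2 fold change between -0.88 and -0.71 in those fits. Without red replicate 3 the log2 fold change was -0.98 and the call was kept.

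Cg2g013750, the fifth most abundant of the family, did not pass the test, although its cultivars did not overlap. It had 93.6, 113 and 101 in red and 92.6, 78.2 and 85.5 in white, a log2 fold change of 0.26 (SE 0.10) and an adjusted p of 0.0707.

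The remaining 8 tested genes of the family are named here after their values were seen. Cg2g023550 had a best hit to NDR1, which in Arabidopsis relays the signal of several disease resistance proteins. It had 13.5, 11.7 and 13.3 in red and 18.5, 23.6 and 30.3 in white, and was lower in red with a log2 fold change of -0.88 (SE 0.18) and an adjusted p of 0.00694. Cg6g011130 had 23.3, 19.3 and 22.7 in red and 32.2, 40.2 and 29.4 in white, and was also lower in red, with a log2 fold change of -0.63 (SE 0.14) and an adjusted p of 0.00949. Neither gene overlapped between the cultivars, but both lay close to the threshold. The call of Cg2g023550 was kept without white replicate 1 and lost without any other library, with an adjusted p of up to 0.0266, and that of Cg6g011130 was lost without any single library, with an adjusted p of up to 0.0324.

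Cg6g011130 is next to Cg6g011120, which is also of the family and did not pass the test, with 41.0, 36.5 and 41.0 in red, 39.2, 54.6 and 52.5 in white and an adjusted p of 0.122. Cg8g013860, with 7.76, 4.22 and 6.38 in red and 3.22, 2.52 and 2.68 in white, had a log2 fold change of 1.06 (SE 0.24) and an adjusted p of 0.0113, which passed without red replicate 2 (0.00468). Cg3g005960 had a log2 fold change of 0.57 and an adjusted p of 0.0298. The other 3 genes, Cg5g001180, Cg8g012980 and Cg5g039950, had log2 fold changes of -0.74, -0.34 and -0.57 with adjusted p values of 0.0582, 0.184 and 0.267, and their cultivars overlapped.

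**Figure D4:**
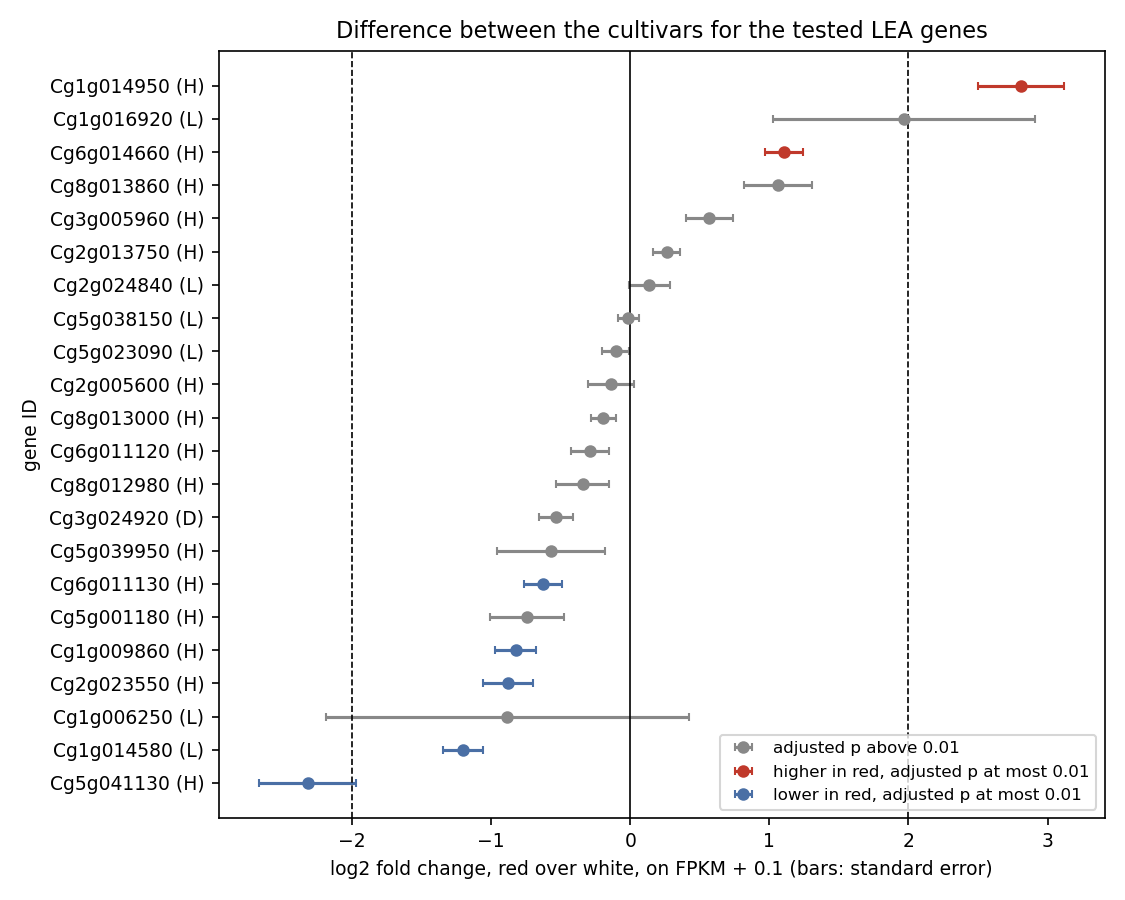
Log2 fold change, red over white, on FPKM + 0.1 for the 22 tested genes, with bars for the standard error and dashed lines at a log2 fold change of 2 in either direction. D, L and H mark the dehydrin, the other LEA genes and the hydroxyproline-rich family. The 2 red points and 5 blue points have an adjusted p of at most 0.01, and Cg1g014950 (2.81) and Cg5g041130 (-2.32) alone lie beyond the dashed lines with such an adjusted p.

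Across the 22 genes the size of the difference was 0.60 on the log2 scale at the median, against 0.40 over all genes tested, and 16 genes (72.7%) differed by less than 1, against 79.2%. The spread among replicates was also larger than for the genes at large in red, with a median coefficient of variation of 17.4% against 11.6%, and close to it in white, with 12.4% against 11.2%.

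**Figure D5:**
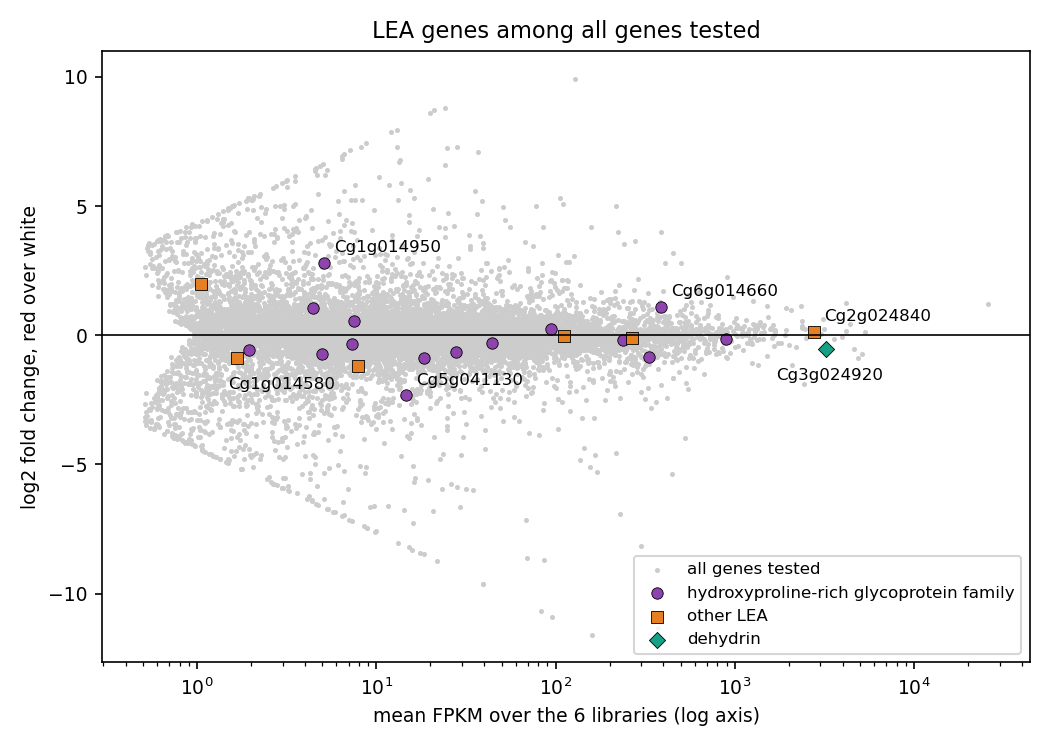
Log2 fold change, red over white, against the mean FPKM over the 6 libraries (log axis) for the 14158 genes tested (grey) and the 22 tested LEA genes (coloured by annotation). The dehydrin Cg3g024920 and the LEA14-type gene Cg2g024840 lie at the high end of expression, with log2 fold changes of -0.53 and 0.14, and the other LEA genes lie within the cloud of all genes.

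The name rule missed 9 genes whose best hit is a LEA gene of Arabidopsis but whose annotation uses another name. Of these, 3 were tested, 1 was higher in red and none was lower, against 13.4% and 14.1% of all genes tested. Cg9g002720, which carries the name of its best hit, DI21 (drought-induced), a LEA_3 gene, exceeded every gene of the name rule in mean FPKM and ranked 3 among all genes. Its FPKM was 4589, 3484 and 3492 in red and 5286, 7293 and 6422 in white, without overlap, with a log2 fold change of -0.72 (SE 0.18) and an adjusted p of 0.0174. It passed in 1 of the 17 alternatives, quantile normalization. Like the dehydrin gene it was higher in every white library than in any red library without passing the test.

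Cg7g002130, with a best hit to EM6, a LEA protein of the late maturing seed, was the one of the 3 that passed. It had 74.7, 59.1 and 95.3 in red and 20.4, 36.9 and 34.5 in white, a log2 fold change of 1.34 (SE 0.26) and an adjusted p of 0.00562. With single libraries left out, the log2 fold change lay between 1.07 and 1.51, and the call was kept without red replicate 2 or white replicate 1 and lost in the other 4 cases, with an adjusted p of up to 0.0234.

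Seed marker genes also differed between the cultivars. Of 12 pomelo genes with best hits to seed storage proteins, oleosins and their regulators, 3 were tested, each of which entered the test through its red mean alone, so that the filter set their direction. Listed at 0 in all white libraries were 9 of the 12, of which 3 were at 0 in all red libraries as well. Cg4g013710, with the best hit LEC1, went the other way, with 0 in every red library and 0, 0.12 and 0.57 in white. The summed FPKM of the 12 genes was 13.7, 12.7 and 89.0 in red replicates 1 to 3 and between 0.09 and 0.76 in white. Cg2g023710, with a best hit to the seed storage albumin SESA5, had 7.93, 7.30 and 63.3 in red and was listed at 0 in every white library. The other tested genes both had the best hit CRA1. Cg9g008230 had 2.96, 2.61 and 10.6 in red and 0.04, 0.09 and 0 in white. For Cg9g008240 the values were 1.91, 1.47 and 12.3 in red and 0.05, 0.16 and 0.19 in white. In bulk pulp a change in the number of cells of a type and a change in RNA per cell cannot be told apart, and the part of seed RNA in the results on LEA genes was not tested. Red replicates 1 and 2 also lay above every white library in the summed FPKM of these markers. Leaving out red replicate 3, the highest, thus does not remove the difference in that sum. In the fit without red replicate 3, 2 LEA genes were higher in red at the adjusted p alone (Cg1g014950 and Cg6g014660) and 4 were lower (Cg1g009860, Cg1g014580, Cg3g024920 and Cg5g041130). Together they were 27.3% of the tested LEA genes, against 23.9% of all genes tested. Cg1g014950 and Cg5g041130 passed both thresholds there.

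Of 18 genes with best hits to carotenoid and vacuolar proton pump genes, taken as pulp markers, 4 were listed at 0 in all 6 libraries and 10 were tested. Of these 10, 3 were higher in red and 1 was lower. Of 3 genes with best hits to photosynthesis genes 1 was higher in red. Over all genes tested 13.4% were higher and 14.1% lower. The pulp markers Cg6g016720, with the best hit PSY, and Cg2g032380, with the best hit AVP1, passed both thresholds. Their log2 fold changes were 2.46 and 3.22, and Cg2g032380 had a mean FPKM of only 3.27 in red and 0.277 in white. Cg4g019740, a far more abundant gene with the best hit AVP1, went the other way. Its mean was 301 in red and 394 in white without overlap, and it did not pass (log2 fold change -0.40, adjusted p 0.0197). Cg1g020730, also with that best hit, had a log2 fold change of 0.33 (adjusted p 0.0142). The pulp marker that was lower was Cg3g011420, with the best hit ZDS (log2 fold change -1.74). The FPKM of all genes summed to between 812334.82 and 835574.71 per library, with between 15920 and 16250 genes above 0.

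The inducers of LEA genes were compared from lists of best Arabidopsis hits. ABA synthesis, breakdown, receptor, phosphatase, kinase and bZIP genes came to 41 pomelo genes, of which 30 were tested, 3 were higher in red and 3 were lower, with a median log2 fold change of -0.01. Over all genes tested the shares were 13.4% and 14.1%, so neither count stood above the background. Of the 3 that were higher, Cg7g002520, with a best hit to the ABA receptor PYL4, changed most, with a mean of 42.5 ± 6.28 in red and 15.7 ± 4.41 in white (SD, n = 3), a log2 fold change of 1.45 (SE 0.21) and an adjusted p of 0.00155. Cg6g009750, a more abundant gene with the same best hit, had a mean of 85.4 in red and 70.1 in white. It overlapped between the cultivars and did not pass (log2 fold change 0.32, adjusted p 0.185). One ABA gene passed both thresholds. Cg8g022720, with a best hit to CYP707A2, an enzyme that inactivates ABA, had 0.29, 0 and 0.62 in red and 8.52, 11.5 and 11.8 in white, a log2 fold change of -5.12 (SE 0.67) and an adjusted p of 0.00113, and every white library lay far above the red ones. Since a red library was at 0, the fold depended on the pseudocount, and the log2 fold change was -6.41 with 0.01 (adjusted p 0.0109) and -3.17 with 1. The more abundant ABA breakdown gene was Cg6g020290, with the best hit CYP707A3. It had a mean of 85.5 in red and 147 in white without overlap, and did not pass (log2 fold change -0.77, adjusted p 0.0132). Leaving out single libraries gave between 2 and 5 ABA genes higher in red and between 1 and 4 lower.

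Of the DREB/CBF transcription factor genes 5 were found and 4 were tested, of which 1 was higher in red, the gene Cg7g002540 with the best hit DREB2A, at 70.7 ± 2.10 against 48.3 ± 2.79 (log2 fold change 0.55, SE 0.08, adjusted p 0.00134). The most abundant of them, Cg9g026260 with the best hit CBF2, had 1152 ± 151 in red and 1281 ± 36.6 in white and did not pass (adjusted p 0.305). Of 3 further stress genes, Cg4g003490 with the best hit RD22 was higher in red (log2 fold change 1.79, adjusted p 0.00454), a call that was lost without any 1 of the red replicates. Cg2g044230 with the best hit COR413IM1 was lower in red (log2 fold change -0.89, adjusted p 0.000154). The most abundant of the 3, Cg9g026770 with the best hit RD29B, had 671 ± 99.3 in red and 864 ± 99.7 in white. Its cultivars did not overlap, but it did not pass (adjusted p 0.0697). Beside the counts of the DREB/CBF and stress lists, 13.4% of all genes tested were higher in red and 14.1% lower.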

How the data were processed

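Poly-A RNA of ripe pulp from 2 pomelo cultivars was sequenced as paired-end libraries, with 3 libraries per cultivar, taken to group and replicate from their titles. Per the submitters' processing notes and the methods of the study, the authors trimmed reads with Trimmomatic, mapped them with STAR 2.7.1a in 2-pass mode to the C. maxima genome and computed FPKM per gene with RSEM 1.3.1, which were deposited rounded to 2 decimals. The deposited table also holds a signal column made by the authors, the mean over the 6 libraries of normalized featureCounts 2.0.1 counts. It was used here only beside FPKM that were low or listed at 0, and for Cg3g024920 and Cg2g024840. The authors' own comparison columns (log2 fold change, its standard error, statistic, p and adjusted p from DESeq2) and the table of their differentially expressed genes were not used. No per-sample column was left unused (0). As FPKM carry no counts, no count model and no counting interval was possible, and the strand setting of the counting is not given in the sources used here.

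The 14158 genes with a mean FPKM of at least 1 in either cultivar were compared by a linear model of log2(FPKM + 0.1), fitted in limma 3.58.1 (R 4.3.3) on cultivar alone with a mean-variance trend in the moderation, after the same code had been tested on simulated data. P-values were adjusted by Benjamini-Hochberg over all of these genes. The changes in the simulated data all exceeded a log2 fold change of 2, so the recovery of smaller ones was not tested. Ratios, shares and counts were computed in Python 3.11.15 with pandas 2.3.3 and numpy 2.4.6. The LEA genes, the context and marker lists (Arabidopsis best hits of LEA, NDR1/HIN1-like, ABA, DREB/CBF, stress, seed, photosynthesis and pulp genes) and the tests were chosen with earlier results of these data known. Genes were named by a rule: those past both thresholds, those past the adjusted p with a log2 fold change of at least 1, all tested members outside the hydroxyproline-rich family, the 5 most abundant of that family, and from each list the genes past both thresholds. The rule also covered the most abundant gene of each list, but not every one of these is named. Any other gene was chosen for mention with its values in view. The 17 alternatives for each gene were other pseudocounts (0.01, 0.5 and 1), filters, scalings and moderation settings, a replicate block and the omission of each library, and the counts were also taken at an adjusted p of 0.05 and a log2 fold change of 1. Replicate numbers did not pair the libraries, since the correlations of same-numbered deviations were 0.000385, 0.0309 and -0.0446. Sequences and gene positions were not used here.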

Additional observations from a re-analysis of the deposited data

How the results depend on the processing

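No called gene changed direction among the 22 tested LEA genes and the 5 other genes refitted under the alternatives, and other genes named in the text were not refitted one by one. A log2 fold change of 1 in place of 2 gave 2 LEA genes higher in red (Cg1g014950 and Cg6g014660) and 2 lower (Cg1g014580 and Cg5g041130). An adjusted p of 0.05 gave 4 genes higher and 6 lower, Cg3g024920 among them, at any fold change. The shares of all genes tested at these 2 thresholds are not given here, so these counts cannot be set against a background. Moderation without a trend gave 3 genes lower at the adjusted p alone in place of 5. Cg3g024920 was added, and Cg1g009860, Cg2g023550 and Cg6g011130 were lost. In that setting 22.2% of all genes tested and 22.7% of the tested LEA genes passed the adjusted p in either direction. Leaving out single libraries gave 0 to 1 gene lower by both thresholds, the 0 coming without white replicate 2, and 1 to 4 genes lower by the adjusted p alone. The genes higher in red numbered 1 by both thresholds and 2 to 3 by the adjusted p alone in these omissions. All genes tested lost calls as well: 27.5% passed the adjusted p with all libraries and 14.7% to 23.9% with a library left out. Fewer libraries entered these fits, and the cause was not tested further. The median log2 fold change of the tested LEA genes was -0.24 and lay between -0.32 and -0.14 over these omissions, and it was -0.34 over the 35 genes tested without a filter.

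With the replicate number as a block, 2 genes were lower by the adjusted p alone (Cg1g014580 and Cg5g041130) and 2 higher (Cg1g014950 and Cg6g014660), and 1 gene was past both thresholds in each direction. The share of all genes past the adjusted p was 19.2% with the block. Same-numbered libraries deviated together no more than others, with correlations of 0.000385, 0.0309 and -0.0446. FPKM carry no depth, and the LEA genes under a mean FPKM of 1 were not tested.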

Other observations

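Cg6g014660, the abundant hydroxyproline-rich gene that was higher in red-sarcocarp pomelo, has a neighbour by ID that is named as NDR1/HIN1-like. Cg6g014670, with a best hit to NHL1, lies outside the name rule and had a FPKM of 410.3, 499.9 and 472 in red and 290.5, 284 and 288 in white, without overlap. Its log2 fold change was 0.68 (SE 0.09) with an adjusted p of 0.00131 by limma, and it was called in all 17 alternatives. It was the 1 gene that the list of NDR1/HIN1-like genes outside the name rule held. The gene on the other side, Cg6g014650, was listed at 0 in all libraries. Reads shared between such neighbours, if they are close copies, cannot be assigned with certainty.

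Next to Cg1g009860, which was lower in red, the protein kinase gene Cg1g009870 was higher in red, with a mean FPKM of 20.3 against 8.47 in white and a log2 fold change of 1.23 (adjusted p 0.00126 by limma). Next to Cg1g014580, also lower in red, Cg1g014590, named after a PDI-like protein of Arabidopsis, was lower in red as well, with 15.6 against 21.0 and a log2 fold change of -0.42 (adjusted p 0.00870). The genes next to Cg1g014950 and Cg5g041130, which passed both thresholds, did not pass the adjusted p or were not tested. Those next to Cg6g011130 did not pass, and those next to Cg2g023550 were not tested. Over all genes tested 27.5% passed the adjusted p, and whether neighbours were called together more often than that was not tested.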
